A study of Rattus norvegicus with 20 samples.

Results

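The transcripts described here belong to 10 genes of microglia and of the complement system: the complement genes C1qa, C1qb, C1qc and C3, the receptor genes Csf1r and Cx3cr1 with the signalling adaptor Tyrobp, and the phagocyte genes Ctss, Cd68 and Aif1. They were followed through every probe set that the platform annotation gives to 1 of these genes and to no other gene. This gave 11 probe sets, since Aif1 has 2, among 20832 probe sets for 14218 genes. The choice used gene names and no measured value, and all 10 genes were found.

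The RNA came from globular bushy cells of Sprague Dawley rats, neurons of the ventral cochlear nucleus whose axons cross the brainstem and end as the calyx of Held, a giant terminal. The cells were marked by cholera toxin B injected 24 h before death into their target on the other side, the medial nucleus of the trapezoid body, and 200 marked cells per animal were cut by laser from 12 µm frozen sections. Their RNA was amplified linearly in 2 rounds and hybridised to 1 microarray per animal. The ages were postnatal day 3 (P3, the time of synapse formation, 6 animals), P8 (a juvenile synapse, 9 animals) and P21 (a mature synapse, 5 animals). Every animal carried the tracer injection, and the groups used here hold no uninjected animal. The P8 arrays are given as replicates 5 to 9 and replicates 1 to 4, because their control probe sets stand apart, and the labels give no difference between them. Age comparisons below use P8 replicates 1 to 4 alone. The labels speak of biological replicates and name no litter or day.

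Microglia are the resident macrophages of the brain. They depend on signals through the receptor encoded by Csf1r, read neuronal fractalkine through Cx3cr1, and clear debris, dying cells and surplus synapses. C1q, built from the chains encoded by C1qa, C1qb and C1qc, starts the classical complement pathway, which cleaves C3. Fragments of C3 left on a surface mark it for phagocytes that carry complement receptors. In the mouse visual system C1q and C3 take part in the removal of surplus synapses, and in the mouse brain C1q comes mainly from microglia while C3 is also made by astrocytes. No array held microglia alone, so RNA of a neighbouring microglial cell and RNA of the bushy cell itself cannot be told apart, nor can fewer cells of a type and less RNA per cell.

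Promoter sequences are shown for C3 and Ctss, the members whose level changed with age, and for C1qa, the member whose pattern over arrays was most like that of the others. Each is the RefSeq window of assembly GRCr8 from 250 bases before to 50 bases after the annotated start, written 5′ to 3′ on the strand of the gene: chr9:2201290-2201589 on the minus strand for C3, chr2:185775146-185775445 on the plus strand for Ctss and chr5:154419884-154420183 on the minus strand for C1qa. Capitals mark matches to a C/EBP motif in C3, to an interferon-stimulated response element and a PU.1 core in Ctss, and to the PU.1 core in C1qa.
C3: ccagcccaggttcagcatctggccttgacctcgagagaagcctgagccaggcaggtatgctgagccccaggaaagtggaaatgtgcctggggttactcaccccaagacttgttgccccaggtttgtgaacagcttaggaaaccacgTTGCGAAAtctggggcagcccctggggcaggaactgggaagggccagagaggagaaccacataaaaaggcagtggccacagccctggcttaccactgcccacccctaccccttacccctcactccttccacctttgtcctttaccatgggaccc
Ctss: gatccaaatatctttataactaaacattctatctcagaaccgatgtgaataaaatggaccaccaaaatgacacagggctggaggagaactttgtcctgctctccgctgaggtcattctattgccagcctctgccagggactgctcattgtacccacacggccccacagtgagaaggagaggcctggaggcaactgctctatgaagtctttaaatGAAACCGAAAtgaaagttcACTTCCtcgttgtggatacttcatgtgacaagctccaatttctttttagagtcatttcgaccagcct
C1qa: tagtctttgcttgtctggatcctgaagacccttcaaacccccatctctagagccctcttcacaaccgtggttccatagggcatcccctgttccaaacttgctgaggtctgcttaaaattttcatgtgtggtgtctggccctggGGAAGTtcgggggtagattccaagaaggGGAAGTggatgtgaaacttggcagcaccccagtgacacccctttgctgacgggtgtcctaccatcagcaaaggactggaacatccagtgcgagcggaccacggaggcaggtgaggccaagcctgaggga

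A window was found for 7 of the 10 genes (C1qa, C1qb, C3, Cd68, Csf1r, Ctss and Cx3cr1), and motifs were searched on both strands with letters chosen after the windows had been read. GGAAGT, the core bound by PU.1, a transcription factor of myeloid cells, was in 5 of the 7 windows and in 22.6% of the 33469 RefSeq windows of the same length. Those 5 windows belonged to C1qa, C1qb, Cd68, Ctss and Cx3cr1. The C1qa window held 2 such matches, beginning 107 and 79 bases before the start. In Ctss the match lay on the opposite strand, 17 bases before the start, where it reads ACTTCC. TTGCNNAA, a form of the C/EBP motif, was in C3 alone of the 7, 104 bases before the start as TTGCGAAA, and in 10.6% of all windows. The interferon-stimulated response element, GAAA followed by any 2 bases and GAAA, was in Ctss alone of the 7, 36 bases before the start as GAAACCGAAA, and in 3.92% of all windows. No match overlapped another. C1qb, C1qc and C1qa are consecutive genes on chromosome 5.

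Across the 3 ages, C3 was lower at P21 and at P8 than at P3, and Ctss was lower at P8 than at P3 and higher at P21 than at P8. The remaining tested members did not pass the test between any pair of ages. The levels are linear intensities, compared as log2(intensity + 1) with limma and Benjamini-Hochberg adjustment over all probe sets tested, at an adjusted p under 0.05. A probe set was tested if it lay above log2 4 on at least 5 of the 15 arrays, which held for 15650 probe sets and for 9 of the 11 member probe sets. Cd68 and the Aif1 probe set 1368558_s_at stayed below that filter. A gene could pass it through the arrays of 1 age alone. For P21 against P3, 39.1% of all tested probe sets were called (20.1% higher, 19% lower), and of the 9 member probe sets 0 were called higher, 1 lower (C3) and 8 not called. For P8 against P3, 15.6% of all were called (7.81% higher, 7.75% lower), and 0 members were higher, 2 lower (C3 and Ctss) and 7 not called. For P21 against P8, 16.7% of all were called (8.31% higher, 8.42% lower), and 1 member was higher (Ctss), 0 lower and 8 not called. The median log2 difference over the 9 was -0.32 for P21 against P3 (all tested probe sets 0.02), -0.47 for P8 against P3 (all -0.02) and 0.14 for P21 against P8 (all 0.05). At an unadjusted p under 0.05 the counts of 9 were 2, 4 and 1 in the same comparisons. The called 1 or 2 of 9 are shares below or near those of the whole table.

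**Figure D1:**
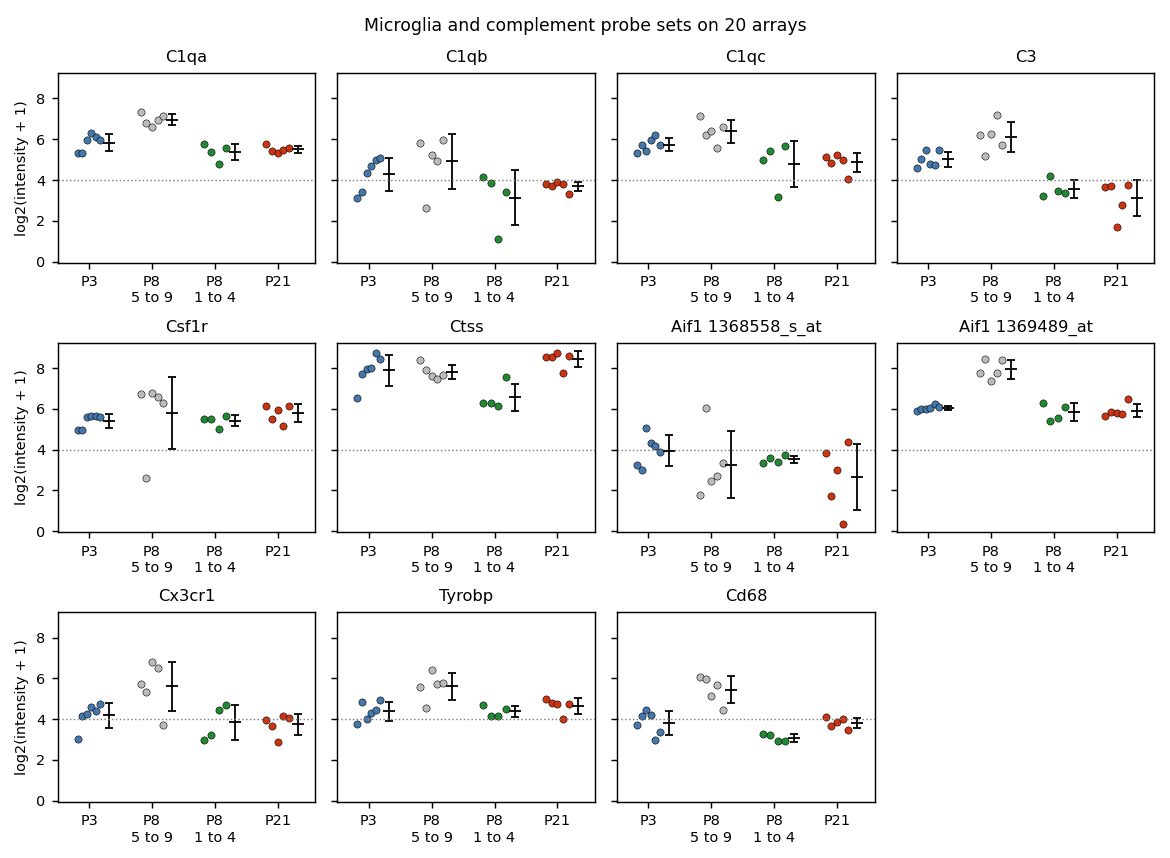
Level of each of the 11 member probe sets as log2(intensity + 1), 1 point per array, with mean and SD beside each set of arrays: P3 (blue), P8 replicates 5 to 9 (grey), P8 replicates 1 to 4 (green) and P21 (red). The dotted line is log2 4. For C3 all 5 P21 points lie below it and all 6 P3 points above it, and for Ctss the 5 P21 points lie above the 4 points of P8 replicates 1 to 4.

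**Figure D2:**
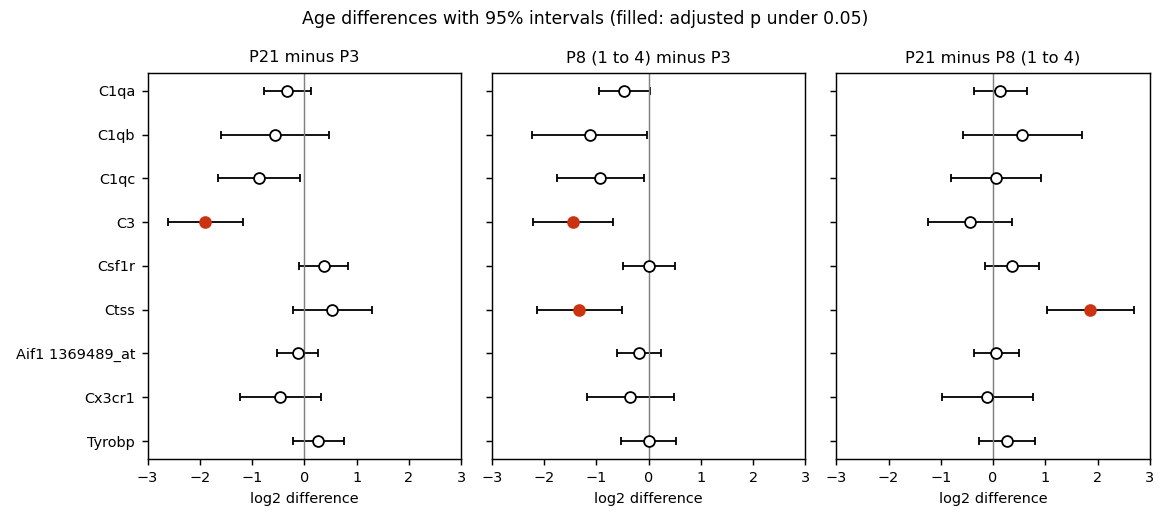
Log2 difference between ages for the 9 member probe sets tested over 15 arrays, with 95% confidence intervals from limma. Filled points passed an adjusted p of 0.05. C3 is filled for P21 minus P3 and P8 minus P3, and Ctss for P8 minus P3 and P21 minus P8.

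The arrays of the 3 ages were alike in their overall scale. Their median intensity lay between 23.8 and 32.5, and their spike-in controls averaged log2 8.29 to 9.09. The 3′ minus 5′ log2 difference of the GAPDH control, a measure of RNA length, was 2.91 ± 0.27 at P3, 3.27 ± 0.42 at P8 and 3.99 ± 0.66 at P21 (SD, n = 6, 4 and 5), and that of the beta-actin control was 4.70 ± 0.30, 4.29 ± 0.19 and 4.32 ± 0.69 at the same ages. The GAPDH measure was highest at P21 and the beta-actin measure at P3, and their part in the results was not tested. Myelin genes of oligodendrocytes, as markers of another neighbouring cell type, had summed intensities of 819.6 to 2184.7 at P3, 5718.5 to 8896.0 at P8 and 7277.9 to 10829.0 at P21. All 11 measured genes of that list were called higher at P21 than at P3. The 11 astrocyte markers summed to 6188.1 to 12259.3 at P3, 5844.1 to 9565.7 at P8 and 6632.1 to 8284.0 at P21, with 3 called higher, 3 lower and 5 not called for P21 against P3. For P8 against P3 the astrocyte list had 1 higher, 3 lower and 7 not called, and for P21 against P8 it had 2 higher, 1 lower and 8 not called. Of 11 endothelial markers 2 were higher, 1 lower and 8 not called for P21 against P3, 1 higher, 1 lower and 9 not called for P8 against P3, and 0 higher, 1 lower and 10 not called for P21 against P8. Of 5 tested choroid plexus markers 0 were called by limma for P21 against P3 (0 at an unadjusted p under 0.05), 1 was lower for P8 against P3 and 1 higher for P21 against P8. Of 16 bushy cell and neuronal genes 10 were higher, 1 lower and 5 not called for P21 against P3. For P8 against P3 these counts were 6, 0 and 10, and for P21 against P8 they were 6, 1 and 9. The 16 genes summed to 13869.3 to 15580.5 at P3, 18543.6 to 22770.1 at P8 and 19634.0 to 29587.9 at P21. The part of these neuronal levels in the member results was not tested. The members' own spread within an age was a median SD of 0.42 at P3, 0.44 at P8 and 0.39 at P21 on the log2 scale, beside 0.28, 0.42 and 0.34 over all tested probe sets.

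C3, on which the complement pathways converge, was the complement member that passed the test between ages. At P3 its intensity lay between 23.5 and 43.4 with a median of 29.25. At P8 the 4 arrays read 8.3, 17.5, 10.1 and 9.3. At P21 the 5 arrays read 11.6, 12.0, 2.3, 5.9 and 12.4. Every P3 array was above every P8 and every P21 array, orders that 6.61% and 13.6% of all tested probe sets shared, while P8 and P21 overlapped. C3 averaged log2 5.02 ± 0.38 at P3, 3.57 ± 0.44 at P8 and 3.12 ± 0.88 at P21. At P21 the level was 3.72-fold below P3 (log2 difference -1.89 ± 0.34 SE, limma adjusted p = 0.000464), and the P8 level was 2.73-fold below P3 (-1.45 ± 0.36, limma adjusted p = 0.0152). P21 minus P8 was -0.44 ± 0.38 (limma adjusted p = 0.459, 95% interval -1.25 to 0.36), so the order of these ages was not resolved. C3 lay above log2 4 on 6 of 6 P3 arrays, 1 of 4 P8 arrays and 0 of 5 P21 arrays. The P3 arrays carried it past the filter, so the age where it was high decided that it was tested. Such dim values make the size of a difference depend on the settings. Apart from fits that left out 1 array, P21 minus P3 ran from -1.95 to -0.93 under the alternatives. The median intensity was 29.25 at P3 and 11.6 at P21. With all 9 P8 arrays as 1 group, P21 against P3 had an adjusted p of 0.0515 and P8 minus P3 was -0.04 (limma adjusted p = 0.963).

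Other measures also differed between the P3 arrays and the later ones. The inflammatory mediators listed below summed to 529.9 to 3119.4 at P3, 447.8 to 562.0 at P8 and 405.7 to 559.3 at P21. S100a8, a calcium-binding protein of neutrophils and other myeloid cells, averaged log2 5.10 ± 0.99 at P3, 0.58 ± 0.14 at P8 and 0.80 ± 0.40 at P21. It was called lower at P21 than at P3 (-4.29 ± 0.38, limma adjusted p = 7.45e-07), and it too passed the filter through its P3 arrays. Among the 6 tested blood leukocyte markers it was the 1 called lower in that comparison, while Alas2, an enzyme of haem synthesis in red cell precursors, was called higher (1.40 ± 0.32, limma adjusted p = 0.00276), and the list median was 0.52 beside 0.02 over all tested probe sets. The part of these measures in the C3 result was not tested.

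The C1q chains did not pass the test between ages. C1qa lay between 38.6 and 79.0 at P3 with a median of 62.35, read 52.9, 40.5, 26.9 and 46.1 at P8, and read 54.1, 42.1, 39.2, 43.1 and 46.3 at P21. The ages overlapped, with P21 minus P3 at -0.32 ± 0.21 (limma adjusted p = 0.248) and P8 minus P3 at -0.47 ± 0.23 (limma adjusted p = 0.176). C1qb lay between 7.7 and 32.9 at P3 with a median of 22.25, read 16.6, 13.7, 1.2 and 9.8 at P8, and read 13, 12, 14, 12.8 and 9.1 at P21. Its low P8 value belonged to replicate 3, and P8 minus P3 was -1.13 ± 0.52 (limma adjusted p = 0.15). C1qc lay between 38.8 and 72.5 at P3 with a median of 52.05, read 30.9, 41.3, 8.0 and 49.7 at P8, and read 34.3, 28.0, 37.0, 31.1 and 15.8 at P21.

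Every P21 array was below every P3 array for C1qc, as it was for C3, an order that 13.6% of all tested probe sets shared. The C1qc difference of P21 minus P3 was -0.87 ± 0.37 with a 95% interval of -1.65 to -0.08, and its limma adjusted p was 0.0746. This value turned on P8 replicate 3, which enters through the shared estimate of the spread: without it the difference stayed at -0.87 and the adjusted p was 0.00664. P8 replicate 3 was the lowest of its age for 6 of the 9 tested members, and P3 replicate 1 was the lowest of its age for 8 of 9. P8 replicate 3 also had the lowest median intensity of its age, 23.8, and the highest GAPDH 3′ minus 5′ difference, 3.86. On P3 replicate 1 these measures were 30.5 and 2.81, within the range of its age. Their part in the low member values was not tested. The C1qc difference of P21 minus P8 was 0.06 ± 0.41 (limma adjusted p = 0.944).

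The receptors and their adaptor did not pass the test between any pair of ages. Csf1r, the receptor for the growth factors CSF1 and IL-34, lay between 30.0 and 49.4 at P3 with a median of 47.3, read 44.0, 43.8, 31.3 and 49.4 at P8, and read 70.2, 44.0, 60.1, 34.4 and 69.7 at P21. The ages overlapped, although 3 of the 5 P21 arrays were above every earlier one. P21 minus P3 was 0.37 ± 0.22 (limma adjusted p = 0.198, 95% interval -0.10 to 0.83). Cx3cr1, the fractalkine receptor, lay between 7.2 and 26.0 at P3 with a median of 19.05, read 6.9, 8.4, 21.2 and 25.2 at P8, and read 14.6, 11.6, 6.4, 16.8 and 15.6 at P21. Of its P8 arrays 2 were low and 2 high, and P21 minus P3 was -0.46 ± 0.37 (limma adjusted p = 0.347, 95% interval -1.24 to 0.32). Tyrobp, also called DAP12, passes on signals of TREM2 and related receptors. It lay between 12.4 and 29.4 at P3 with a median of 19.85, read 24.5, 17.0, 16.9 and 21.9 at P8, and read 30.6, 26.3, 26.1, 14.9 and 25.4 at P21. Its P21 minus P3 difference was 0.27 ± 0.23 (limma adjusted p = 0.386, 95% interval -0.22 to 0.76). P8 minus P3 was 0.01 ± 0.23 for Csf1r, -0.35 ± 0.39 for Cx3cr1 and 0.00 ± 0.25 for Tyrobp (limma adjusted p = 0.988, 0.577 and 0.998).

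Ctss encodes cathepsin S, a lysosomal protease of antigen-presenting cells and microglia. At P3 its intensity lay between 91.2 and 425.3 with a median of 249.7. At P8 the arrays read 76.2, 77.5, 68.5 and 187.3, and at P21 they read 376.7, 368.9, 420.9, 212.8 and 380.2. Every P21 array was above every P8 array, an order shared by 7.31% of all tested probe sets, while P3 overlapped both. P21 was 3.64-fold above P8 (log2 difference 1.87 ± 0.39, limma adjusted p = 0.00477), and P8 was 2.51-fold below P3 (-1.33 ± 0.38, limma adjusted p = 0.0282). P21 minus P3 was 0.54 ± 0.36 (limma adjusted p = 0.251). The P8 against P3 call was lost without P3 replicate 4, 5 or 6 or P8 replicate 1, 2 or 3 (adjusted p 0.0513 to 0.0772), and with all 9 P8 arrays as 1 group (-0.63, adjusted p = 0.194). The P21 against P8 call held in each of the 15 fits that left out 1 array (adjusted p 0.00126 to 0.0168), and with all 9 P8 arrays it was 1.17 (adjusted p = 0.0455). Kcnj13, a potassium channel gene of the choroid plexus list, had the same order of ages, averaging log2 4.08 ± 0.43 at P3, 2.95 ± 0.98 at P8 and 4.41 ± 0.37 at P21. It was called lower at P8 than at P3 (-1.12 ± 0.36, limma adjusted p = 0.0468) and higher at P21 than at P8 (1.46 ± 0.37, limma adjusted p = 0.0151). Kcnj13 was the 1 called of 5 tested markers of that list. Ttr, the first of them, averaged 6.44 ± 2.49 at P3, 6.87 ± 1.28 at P8 and 6.10 ± 1.44 at P21 and was not called. The part of Kcnj13 in the Ctss result was not tested.

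**Figure D3:**
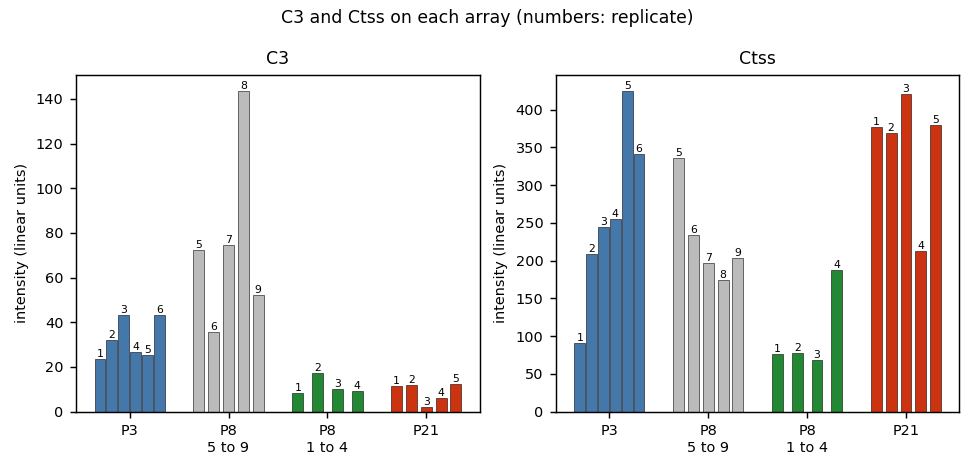
Linear intensity of C3 (left) and Ctss (right) on each of the 20 arrays, with bars from 0 and the replicate number above each bar. C3 was at most 12.4 at P21, against 23.5 to 43.4 at P3. Ctss was 212.8 to 420.9 at P21, against 68.5 to 187.3 in P8 replicates 1 to 4.

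Aif1 encodes IBA1, an actin-binding protein of microglia and macrophages. Its probe set 1369489_at overlapped between all ages: it lay between 58.0 and 73.2 at P3 with a median of 63.85, read 77.5, 42.0, 45.8 and 68.0 at P8, and read 49.7, 56.5, 55.2, 52.2 and 88.2 at P21. P21 minus P3 was -0.13 ± 0.18, with a 95% interval of -0.52 to 0.26 (limma adjusted p = 0.614). The other Aif1 probe set, 1368558_s_at, was dim and scattered. It lay between 6.9 and 32.9 at P3, between 9.1 and 12.4 at P8 and between 0.3 and 19.4 at P21, and it was not tested. Cd68, a glycoprotein of phagocyte lysosomes, was dim too and had no test over the 15 arrays. It lay between 6.8 and 21.1 at P3 with a median of 14.45, read 8.7, 8.4, 6.5 and 6.7 at P8, and read 16.2, 11.8, 13.5, 15 and 9.9 at P21. Each P21 array was thus above each P8 array, an order that 7.31% of all tested probe sets had. Cd68 was not among those tested, and its values were dim at both ages.

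C1qa and C1qb were the pair of members with the highest Pearson's r between arrays. After subtraction of each age mean, Pearson's r over the 15 arrays was above 0 in 32 of the 36 pairs of tested members, with a median of 0.34. The same share over pairs of all tested probe sets was not computed, so this count does not set the members apart. C1qa and C1qb had an r of 0.83 and a Spearman rho of 0.73 (permutation p = 0.0084 and 0.00896 over 100000 shuffles within ages, adjusted p = 0.0958 and 0.0806 over the 36 pairs). Without the 2 arrays farthest from the C1qa median this r was 0.69. Csf1r and Ctss had an r of 0.70 and a rho of 0.75 (permutation p = 0.00075 and 0.00182, adjusted p = 0.027 and 0.0328), and an r of 0.69 without 2 arrays. C1qa and Csf1r had an r of 0.74 and a rho of 0.73 (permutation p = 0.00279 and 0.00161, adjusted p = 0.0502 and 0.0328), and an r of 0.63 without 2 arrays. Csf1r and Ctss were the 1 pair whose r passed the adjustment. Against the mean of the other tested members, ages included, r was 0.85 for C1qa, 0.75 for C1qb, 0.61 for C1qc and 0.54 for Ctss, and it was 0.46 for Aif1, 0.37 for Csf1r, 0.33 for Cx3cr1, 0.32 for C3 and 0.31 for Tyrobp. The values on an array share its hybridisation and its 200 cells, and the summed intensity of the 10 members ran from 320.2 on P3 replicate 1 to 791.3 at P3, from 236.4 to 473.4 at P8 and from 439.0 to 674.7 at P21.

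The probe sets whose pattern was most like the mean of the 9 members, by Pearson's r over the 15 arrays, were those of Tpm1 (0.90), Rab35 (0.90), Nfil3 (0.88), RGD1359108 (0.87), Serpinh1 (0.87), Huwe1 (0.87), Pik3r2 (0.87), Tom1l3 (0.85), Arid5a (0.85) and Fcer1g (0.85). These are descriptions with no test. Fcer1g, the signalling chain of Fc receptors, was the 1 of the 10 on a list of microglia genes, with a Spearman rho of 0.92 and an r of 0.75 after subtraction of the age means. Tpm1, Rab35, Nfil3 and the rest are not on any list used here.

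Other complement genes moved in both directions. Of 42 listed, 33 were measured and 24 tested: for P21 against P3, 4 were higher, 6 lower and 14 not called (median 0.02, as over all probe sets), and for P8 against P3, 0 were higher, 5 lower and 19 not called (median -0.20). Serping1, the C1 inhibitor, was lower at each later age and averaged log2 6.29 ± 0.85 at P3, 3.61 ± 0.82 at P8 and 1.96 ± 0.68 at P21 (P21 minus P3 -4.32 ± 0.44, limma adjusted p = 2.46e-06). Cd55, which speeds the decay of C3 convertases, averaged 6.26 ± 0.24 at P3, 5.64 ± 0.26 at P8 and 3.76 ± 0.47 at P21 (P21 minus P3 -2.50 ± 0.21, limma adjusted p = 4.31e-07). Cr1l, known in rodents as Crry, restrains C3 activation on cells and was lower at P21 than at P3 by a log2 difference of -1.47 ± 0.17 (limma adjusted p = 8.48e-06). Cd59b, which blocks the membrane attack complex, went the other way, averaging 10.18 ± 0.08 at P21 against 8.92 ± 0.23 at P3 (1.26 ± 0.16, limma adjusted p = 2.1e-05).

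C1s, C1r and Masp2, proteases that act with C1q or in the lectin pathway, were each lower than at P3 at 1 or both later ages. C1s, cleaved within the C1 complex, was lower at P21 than at P3 (-2.49 ± 0.61, limma adjusted p = 0.00458). C1r, its activator, was lower at P8 than at P3 (-2.19 ± 0.69, limma adjusted p = 0.0444), while P21 minus P3 was -0.54 ± 0.65 (limma adjusted p = 0.546). Masp2, a protease of the lectin pathway, was lower at P8 than at P3 (-1.40 ± 0.29, limma adjusted p = 0.00505) and at P21 than at P3 (-0.73 ± 0.27, limma adjusted p = 0.0425). For P21 against P8 the list had 2 higher, 2 lower and 20 not called.

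Further microglia genes were mostly not called. Of 51 listed, 41 were measured and 32 tested: for P21 against P3, 2 were higher, 8 lower and 22 not called (median -0.24), for P8 against P3, 0 higher, 4 lower and 28 not called (median -0.11), and for P21 against P8, 2 higher, 4 lower and 26 not called (median 0.05). P2ry12, a purinergic receptor that marks resting microglia, averaged log2 5.29 ± 0.98 at P3, 5.81 ± 1.07 at P8 and 6.16 ± 0.61 at P21 (P21 minus P3 0.87 ± 0.50, limma adjusted p = 0.181). P2ry6, a nucleotide receptor linked to phagocytosis, averaged 5.72 ± 0.90, 4.97 ± 0.44 and 4.81 ± 0.40 at the same ages (P21 minus P3 -0.92 ± 0.37, limma adjusted p = 0.0631). Fcgr2b, the inhibitory Fc receptor, averaged 4.42 ± 0.53 at P3, 1.99 ± 1.03 at P8 and 0.84 ± 0.69 at P21. It was called lower at P21 than at P3 (-3.58 ± 0.41, limma adjusted p = 8e-06). Ptpn6, a phosphatase of blood cells that restrains receptor signalling, averaged 4.35 ± 0.22, 2.71 ± 0.78 and 2.89 ± 0.69 at the same ages (P21 minus P3 -1.46 ± 0.33, limma adjusted p = 0.00242). Both passed the filter mainly through P3 arrays, the age where they were high, and were dim at the later ages. The 2 genes called higher at P21 than at P3 were Tmem119 (1.27 ± 0.27, limma adjusted p = 0.00164) and Runx1 (2.35 ± 0.60, limma adjusted p = 0.00596).

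Coro1a, an actin regulator also present in neurons, averaged 2.49 ± 1.72 at P21 against 6.75 ± 0.62 at P3 (-4.26 ± 0.64, limma adjusted p = 0.000106). Cd14, the co-receptor for lipopolysaccharide, was lower at P8 than at P3 (-2.80 ± 0.65, limma adjusted p = 0.0109) and at P21 than at P3 (-2.23 ± 0.61, limma adjusted p = 0.00957). Csf2ra, a receptor chain for GM-CSF, was lower at P21 than at P8 (-1.90 ± 0.35, limma adjusted p = 0.00213). Runx1, a transcription factor of blood and microglia that some neurons also use, averaged 7.84 ± 0.37 at P21 against 4.38 ± 1.71 at P8 (3.46 ± 0.66, limma adjusted p = 0.00252). The summed intensity of the 41 genes was 1443.8 to 2447.0 at P3, 1501.8 to 1874.7 at P8 and 1491.8 to 1630.3 at P21.

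Markers of macrophages at the borders of the brain were near the low end of the scale. Of 10 listed, 9 were measured and 3 tested, and the defining markers Mrc1 and Cd163 averaged log2 3.51 ± 0.74 and 2.17 ± 1.25 at P3, 3.34 ± 0.32 and 1.96 ± 1.40 at P8, and 2.60 ± 0.64 and 2.38 ± 1.14 at P21. The 9 genes summed to 70.2 to 118.7 at P3, 67.0 to 234.2 at P8 and 55.9 to 85.8 at P21. Lyve1, a hyaluronan receptor of these cells and of lymphatic vessels, was the 1 gene called, lower at P21 than at P8 (-1.90 ± 0.62, limma adjusted p = 0.0489). Ccr2, a receptor of blood monocytes, averaged 1.58 ± 0.93 at P3, 1.77 ± 0.26 at P8 and 1.84 ± 0.58 at P21.

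Inflammatory mediators were lower after P3 where they passed the test, but the P3 arrays were uneven. Their summed intensity was 529.9 and 601.2 on P3 replicates 3 and 4, and 1670.2 to 3119.4 on P3 replicates 1, 2, 5 and 6. Such sums weigh the brightest genes most. The mean log2 level over the 18 measured genes was 5.12 ± 0.72 at P3, 4.23 ± 0.14 at P8 and 4.17 ± 0.20 at P21. Of 20 listed, 18 were measured and 13 tested: 0 were higher, 6 lower and 7 not called for P21 against P3 (median -0.92), 0 higher, 5 lower and 8 not called for P8 against P3 (median -0.66), and 0 of 13 called by limma for P21 against P8 (1 at an unadjusted p under 0.05). Tspo, a mitochondrial protein used as a marker of activated glia, was lower at P21 than at P3 (-1.03 ± 0.23, limma adjusted p = 0.00235). Il1a, which encodes interleukin-1 alpha, was below the filter and averaged log2 3.76 ± 0.42 at P3, 3.62 ± 0.15 at P8 and 3.55 ± 0.45 at P21. Il1b, which encodes the cytokine interleukin-1 beta, averaged log2 4.59 ± 0.41 at P21 against 5.73 ± 0.81 at P3 (-1.14 ± 0.33, limma adjusted p = 0.0118). Il18, a related cytokine, was lower by a log2 difference of -0.92 ± 0.23 (limma adjusted p = 0.00511). Cxcl10, a chemokine induced by interferon, averaged 4.46 ± 0.29 at P21 against 7.63 ± 2.45 at P3 (-3.17 ± 0.86, limma adjusted p = 0.00897), with an SD at P3 far above that of the later ages. Ifitm3, an antiviral membrane protein, was lower at P8 than at P3 (-2.38 ± 0.47, limma adjusted p = 0.00417).

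Signals by which neurons and glia address microglia changed in both directions. Of 17 listed, 16 were measured and 14 tested: 3 were higher, 6 lower and 5 not called for P21 against P3, 4 higher, 2 lower and 8 not called for P8 against P3, and 1 higher, 4 lower and 9 not called for P21 against P8. Cx3cl1, the fractalkine ligand of Cx3cr1, averaged log2 6.91 ± 0.25 at P3, 8.19 ± 0.62 at P8 and 7.23 ± 0.33 at P21, higher at P8 than at P3 (1.29 ± 0.25, limma adjusted p = 0.00374) and lower at P21 than at P8 (-0.97 ± 0.26, limma adjusted p = 0.0186). Of the Csf1r ligands, Il34 averaged 3.80 ± 0.44 at P3, 4.99 ± 0.83 at P8 and 4.48 ± 0.27 at P21 and was higher at P8 than at P3 (1.19 ± 0.32, limma adjusted p = 0.0207). Csf1, the other ligand, averaged 7.60 ± 0.20, 7.41 ± 0.15 and 7.44 ± 0.23 at the 3 ages and was not called.

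Cd200 and Cd47, surface proteins of neurons that restrain phagocytes, were both lower at P21. Cd200 averaged 8.76 ± 0.29 at P21 against 10.13 ± 0.08 at P3 (-1.37 ± 0.20, limma adjusted p = 8.93e-05), and Cd47 averaged 8.71 ± 0.21 against 9.30 ± 0.19 (-0.59 ± 0.17, limma adjusted p = 0.0136). Gas6, which bridges dying cells to the receptors MERTK and AXL, averaged 10.68 ± 0.22 at P21 against 9.66 ± 0.18 at P3 (1.02 ± 0.14, limma adjusted p = 4.43e-05). Tgfbr1, a receptor chain for the cytokine TGF-beta, was lower at P21 than at P3 (-1.19 ± 0.20, limma adjusted p = 0.000233). Cd24, a surface glycoprotein of immature neurons, averaged 9.28 ± 0.25 at P3, 6.53 ± 1.04 at P8 and 10.63 ± 0.43 at P21, lowest at P8 (P21 minus P8 4.11 ± 0.37, limma adjusted p = 7.89e-06).

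Genes of the lysosome and of phagocytes, many of which neurons express too, changed in both directions. Of 26 listed and measured, 24 were tested: 9 were higher, 5 lower and 10 not called for P21 against P3, 3 higher, 3 lower and 18 not called for P8 against P3, and 5 higher, 2 lower and 17 not called for P21 against P8. Lgmn, a lysosomal endopeptidase, averaged log2 8.19 ± 0.15 at P3, 8.96 ± 0.14 at P8 and 9.61 ± 0.17 at P21 (P21 minus P3 1.43 ± 0.13, limma adjusted p = 7.62e-07). Ctsa, a lysosomal carboxypeptidase, had a like order, with 6.99 ± 0.24 at P3, 7.86 ± 0.57 at P8 and 8.66 ± 0.07 at P21 (P21 minus P3 1.67 ± 0.20, limma adjusted p = 1.33e-05). The P8 value of Ctss, by contrast, was below its P3 value. Ctsb, which encodes the lysosomal protease cathepsin B, averaged 9.87 ± 0.32 at P3, 10.08 ± 0.23 at P8 and 10.45 ± 0.19 at P21 (P21 minus P3 0.58 ± 0.17, limma adjusted p = 0.0134). Spp1, which encodes osteopontin, averaged 6.21 ± 0.23 at P3, 6.15 ± 0.73 at P8 and 8.02 ± 0.54 at P21, higher at P21 than at P8 (1.87 ± 0.32, limma adjusted p = 0.00116). Igf1, a growth factor of microglia and neurons, was lower at P21 than at P8 (-2.62 ± 0.56, limma adjusted p = 0.00488). Cd9, a tetraspanin also found in myelin, was higher at P8 than at P3 (1.07 ± 0.25, limma adjusted p = 0.0108).

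**Figure D4:**
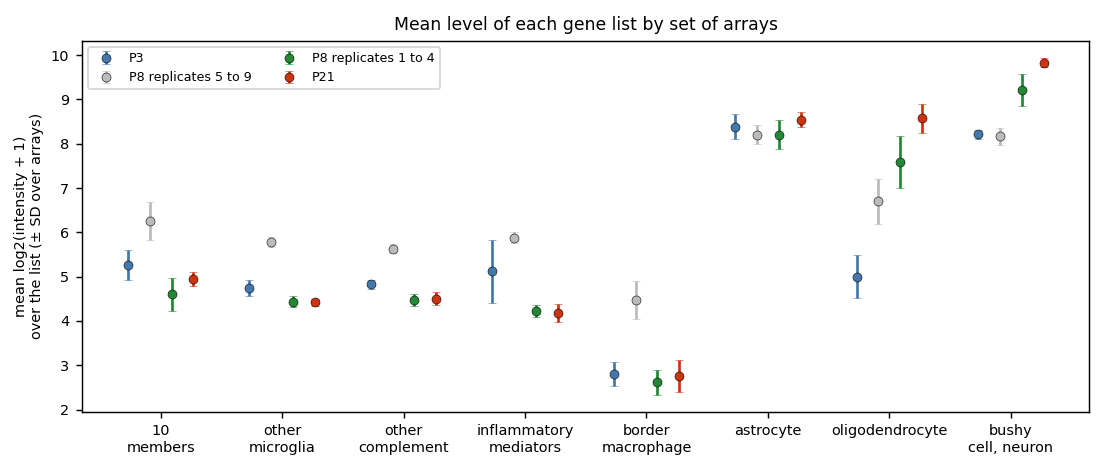
Mean log2(intensity + 1) over the measured genes of each list, averaged over the arrays of a set, with SD over arrays: P3 (blue), P8 replicates 5 to 9 (grey), P8 replicates 1 to 4 (green) and P21 (red). The 10 members averaged 5.26 at P3, 4.60 in P8 replicates 1 to 4 and 4.95 at P21, and 6.26 in P8 replicates 5 to 9. Heights are not comparable between lists, whose probe sets differ.

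P8 replicates 5 to 9 had higher levels of most members than P8 replicates 1 to 4. In a fit of all 20 arrays as 4 sets, 59.9% of the 17325 tested probe sets were called (37.5% higher, 22.3% lower), and of the 11 member probe sets 9 were higher, 0 lower and 2 not called. Cd68, 1 of those 9, passed the filter only through replicates 5 to 9. The median difference of the members was 1.59, and over all tested probe sets it was 0.40. The spike-in controls averaged log2 12.8 to 13.7 on replicates 5 to 9, with 8.29 to 9.09 elsewhere, and the median intensity was 58.9 to 67.5 against 23.8 to 32.5. The GAPDH 3′ minus 5′ difference was 2.19 ± 0.33 in replicates 5 to 9 and 3.27 ± 0.42 in replicates 1 to 4. These measures and the member levels move together, and the set of arrays and any difference in the animals cannot be told apart.

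C3 read 72.5, 35.5, 74.4, 143.7 and 52.3 on P8 replicates 5 to 9, each above the 8.3 to 17.5 of replicates 1 to 4 (2.54 ± 0.41, limma adjusted p = 2.94e-05). Aif1 1369489_at read 215.9, 345.1, 161.3, 218.3 and 337.5, against 42.0 to 77.5 in replicates 1 to 4 (2.10 ± 0.25, limma adjusted p = 8.55e-07). Cd68 read 65.8, 61.2, 33.9, 49.4 and 21, against 6.5 to 8.7 (2.36 ± 0.33, limma adjusted p = 4.66e-06). C1qa read 158.1, 110.7, 97.8, 121.4 and 140.6, against 26.9 to 52.9 (1.59 ± 0.24, limma adjusted p = 1.62e-05). These 4 were the members whose sets did not overlap, an order that 24.7% of all tested probe sets had in this direction.

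The other called members overlapped between the sets. C1qc was higher by 1.58 ± 0.41 (limma adjusted p = 0.00272) and C1qb by 1.77 ± 0.63 (limma adjusted p = 0.0211), and C1qb on replicate 6 read 5.2 beside 30.0 to 60.6 on the other 4 arrays. The C1qb call was lost without P8 replicate 3, 5 or 9 (adjusted p 0.0525 to 0.118). Ctss was higher by 1.25 ± 0.38 (limma adjusted p = 0.00779), Cx3cr1 by 1.76 ± 0.52 (limma adjusted p = 0.00692) and Tyrobp by 1.22 ± 0.32 (limma adjusted p = 0.00281). Csf1r read 103.2, 5.2, 107.5, 93.4 and 77.4 on replicates 5 to 9, against 31.3 to 49.4 in replicates 1 to 4 (0.38 ± 0.59, limma adjusted p = 0.594), and without replicate 6 it was higher by 1.17 (limma adjusted p = 0.000786). The dim Aif1 probe set differed by -0.25 ± 0.76 (limma adjusted p = 0.791), so the 2 Aif1 probe sets disagreed.

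The scaling of the arrays bears on these differences. With each array's median subtracted, the median over all tested probe sets was -0.15 and 43% of the calls were higher, against 62.7% as deposited, and 5 members were called (Aif1 1369489_at, C1qa, C1qc, C3 and Cd68). C3 was then higher by 1.99 (limma adjusted p = 0.000358) and C1qc by 1.02 (limma adjusted p = 0.036), while Ctss differed by 0.69 (limma adjusted p = 0.12). With quantile normalization 42.5% of the calls were higher and Tyrobp differed by -0.02 (limma adjusted p = 0.969). Of the other microglia genes 27 of 38 tested were higher and 1 lower in replicates 5 to 9 (median 1.69), of the other complement genes 14 of 27 were higher and 4 lower (median 1.49), and of 16 bushy cell and neuronal genes 2 were higher and 10 lower. Over 15 arrays 32 of these microglia genes and 24 of these complement genes were tested. Some were thus tested here only through replicates 5 to 9.

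**Figure D5:**
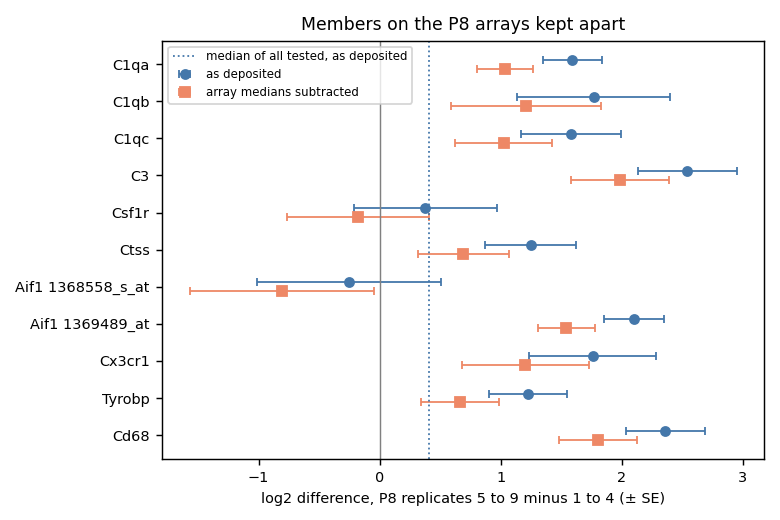
Log2 difference of each member probe set, P8 replicates 5 to 9 minus replicates 1 to 4, with SE from limma, as deposited (circles) and with each array's median subtracted (squares). The dotted line is the median of all tested probe sets as deposited, 0.40. Aif1 1369489_at, C1qa, C1qc, C3 and Cd68 were called on both scales.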

How the data were processed

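The deposited values are linear intensities, 1 for each probe set on each array. GCRMA stands in the submitters' processing notes, without a version or a role, and which tool wrote the deposited intensities is not given there or in the labels. The mean without the lowest and highest 2% was 100 on every array, so the authors' intensities are scaled per array, and no normalization was added. Of 31099 probe sets 57 are controls, 20832 have 1 gene, 436 several and 9831 are unnamed here. Symbols were updated through a RefSeq table of assembly GRCr8 (20764 by Entrez identifier, 2 by accession, 66 kept).

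Values were compared as log2(intensity + 1) in limma 3.58.1 (R 4.3.3; lmFit, eBayes), with 15 arrays in 1 fit for the ages and 20 for the P8 sets (17325 probe sets tested), and every adjusted p of a gene is from limma. For a listed gene the probe set of highest mean was used. The members and lists were chosen with earlier results of these data known. Named are all members, up to 3 called genes with the smallest p per list and age comparison, the first 2 measured genes of a list, and the 10 genes most like the members. Tmem119 was added as 1 of the 2 further microglia genes called higher at P21 than at P3. Of the marker lists the text gives sums and counts for astrocytes, oligodendrocytes and neurons, and counts for endothelium and choroid plexus. Kcnj13 and Ttr are named beside Ctss after their values were seen. Correlations used Python 3.11.15 and SciPy 1.17.1. Same-numbered replicates correlated between -0.06 and 0.08 in their deviations (13 pairs), as did replicates of other numbers (61 pairs). This measure showed no pairing by number, but a shared litter or day could not be tested, since the labels name none. Tested on simulated data, limma called 28, 25 and 19 of 50 probe sets changed 2-fold, and 45, 44 and 39 of 50 changed 4-fold, for P21 against P3, P8 against P3 and P21 against P8. The number of arrays limits the precision.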

Additional observations from a re-analysis of the deposited data

Results flagged for a closer look

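Over the 4 sets of 4, 5 or 6 arrays, 6 of 44 combinations of member probe set and array set held an array far from the rest. The nominal rate of the rule is about 1 in 20. The members share their arrays and the share over all tested probe sets was not computed, so no excess can be read from this count. In P8 replicates 5 to 9, Csf1r on replicate 6 was log2 2.63 (intensity 5.2), beside 6.29 to 6.76 on the others. In P8 replicates 1 to 4, Ctss on replicate 4 was 7.56, beside 6.12 to 6.29. At P21, replicate 4 was low for Ctss, at 7.74 beside 8.53 to 8.72, and for Tyrobp, at 3.99 beside 4.72 to 4.98. Aif1 1369489_at on P21 replicate 5 was 6.48, beside 5.66 to 5.85. Cx3cr1 on P3 replicate 1 was 3.04, beside 4.17 to 4.75.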

How the results depend on the processing

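For P21 against P3, 1 member was called: 2 were called (C1qc and C3) with a pseudocount of 16, with array weights and with only the groups compared, 3 with a floor at intensity 16, and 0 with a filter at log2 6 (2 members tested), a 2-fold threshold or all 20 arrays. For P8 against P3, where 2 were called, the count was 1 with the filter at log2 6 and with only the groups compared, and 0 with a 2-fold threshold, all 20 arrays or the replicate block (C3 -1.31, adjusted p = 0.0696), although same-numbered arrays did not deviate together. For P21 against P8, where 1 was called, a 2-fold threshold called 0 and all 20 arrays called 2, since C3 was then lower at -1.86 (adjusted p = 0.0345). Leaving out 1 array gave 1 to 2, 1 to 2 and 1 to 1 calls in the 3 age comparisons, and 8 to 10 in the P8 sets. For the P8 sets, where 9 were called, the count was 4 with the filter at log2 6 (5 tested), 5 with quantile normalization, 5 with medians subtracted, 5 with the replicate block and 3 with a 2-fold threshold. The Tyrobp difference of the P8 sets turned to -0.019 with quantile normalization, and the cause was not tested. Of 1080 values of single members under alternatives, 1032 kept their side of the threshold, 39 lost a call and 8 gained one. The last 1 was a called difference that turned in sign. Differences that were not called turned in sign too, such as Tyrobp for P8 against P3 in 7 of 27 alternatives. C1qc for P21 against P8 did so in 8 of 27. Over all probe sets, calls higher and lower for P21 against P3 were 3139 and 2975, with 370 and 402 at a 2-fold threshold and 1008 and 1176 over all 20 arrays. For P8 against P3 they were 1222 and 1213, with 19 and 4 at a 2-fold threshold, 684 and 622 with the replicate block and 2743 and 1746 over all 20 arrays. For P21 against P8 they were 1301 and 1318, with 35 and 59 at a 2-fold threshold and 669 and 680 with only the groups compared. For the P8 sets they were 6505 and 3871, with 2700 and 1525 at a 2-fold threshold, 3726 and 5035 with quantile normalization, 3157 and 3627 with the filter at log2 6 and 4262 and 3348 with 1 probe set per gene. Over all 20 arrays the median difference of all probe sets was 0.14 (P8 against P3) and -0.20 (P21 against P8), beside -0.02 and 0.05 over 15 arrays. C3, C1qb, Cx3cr1 and Cd68 lay near the dim end of the scale, where detection was not called.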
